A study of Mus musculus with 11 samples.

Results

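The transcripts of 10 antioxidant genes were followed in mouse pancreatic beta cells: the glutathione peroxidases *Gpx1*, *Gpx3*, *Gpx4*, *Gpx7* and *Gpx8*, catalase (*Cat*), superoxide dismutase 1 (*Sod1*), thioredoxin reductase 1 (*Txnrd1*), the thioredoxin-interacting protein *Txnip* and heme oxygenase 1 (*Hmox1*). They were chosen by name as members of this enzyme system, and all 10 were found among the 55487 genes in the files. The libraries were bulk RNA-seq of sorted beta cells from islets of 12-week-old male C57BL/6 mice (C57BL/6JRj in the methods). In 4 control samples the islets received no IFNγ, and in the others they had been exposed to IFNγ at 50 pg/mL for 20 h before sorting. Live cells positive for EpCam and CD71, low for CD24 and negative for CD45, TER119 and CD31 were taken as beta cells, and the IFNγ-exposed ones were split by surface PD-L1 into PD-L1high (4 samples) and PD-L1low (3 samples). Strain, culture and the beta cell gates were common to all 3 groups, while the split by PD-L1 was described for the IFNγ-exposed cells alone. Replicates were numbered 1 to 4 in the labels, with no PD-L1low sample 1. According to the methods each of them was an independent biological sample, but how many mice stood behind a sample was not given in the sources used here.

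Beta cells make and secrete insulin, and they are known as a cell type with modest capacity to remove hydrogen peroxide. Superoxide dismutases convert superoxide to hydrogen peroxide, catalase and the glutathione peroxidases reduce peroxides, and thioredoxin reductase returns oxidized thioredoxin to its working form. TXNIP binds thioredoxin and is strongly induced by glucose in beta cells, whereas heme oxygenase 1 degrades heme and is a classical target of the stress-responsive factor NRF2. GPX3 is the secreted plasma form, GPX4 reduces lipid peroxides in membranes, and GPX7 and GPX8 reside in the endoplasmic reticulum.

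*Gpx3* and *Hmox1* separated the 2 sorted groups. *Gpx3* was 3.76-fold and *Hmox1* 3.57-fold higher in PD-L1high than in PD-L1low beta cells, both past the threshold of an adjusted p under 0.05. Against control cells, *Gpx3* was lower in PD-L1low beta cells, and no member passed the test in PD-L1high beta cells. That *Gpx3* call sat just under the threshold (edgeR adjusted p = 0.0485) and was kept in 11 of 23 alternative analyses. The other members tested (*Gpx1*, *Gpx4*, *Gpx7*, *Cat*, *Sod1*, *Txnrd1* and *Txnip*) passed it in none of the 3 comparisons. Over all 16252 genes tested, 0.732% passed between the sorted groups, 0.0800% in PD-L1low versus control and 0.991% in PD-L1high versus control.

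Library totals ran from 10422018 to 15810769 expected counts. The beta cell identity of the sort was visible in all groups, as the 10 beta cell markers, among them *Ins1*, *Ins2* and *Iapp*, summed to 62760 to 96420 CPM (counts scaled to a common library size). *Cd274*, which encodes PD-L1, averaged 20.4 CPM in control, 38.1 CPM in PD-L1low and 218 CPM in PD-L1high libraries. Control replicate 1 stood apart from the rest: mitochondrial genes held 13.3% of its counts against 5.54 to 11.9% elsewhere, and protein-coding genes held 46.0% of its TPM (transcript abundance corrected for length) against 52.3 to 69.4%. In bulk samples such as these, fewer cells of a type and less RNA per cell cannot be told apart.

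Levels of different genes were set side by side as TPM, a scale corrected for transcript length. *Sod1* led in control beta cells at 146 ± 47.4 TPM (SD, n = 4), above 97.6% of the 12566 protein-coding genes tested. *Gpx4* followed at 74.5 ± 16.5 TPM, *Txnrd1* at 61.7 ± 14.6 TPM, *Txnip* at 57.1 ± 16.3 TPM, *Gpx1* at 55.0 ± 6.95 TPM and *Hmox1* at 41.0 ± 10.5 TPM. Within a library, *Sod1* was above *Gpx4*, *Gpx4* above *Txnrd1* and *Gpx1* above *Hmox1* in 4 of 4 control libraries, although the ranges of these neighbours over the libraries overlapped. *Txnrd1* was above *Txnip*, and *Txnip* above *Gpx1*, in 2 of 4, so neither of these ranks was resolved. *Txnip* and *Txnrd1* changed places when TPM was rescaled to protein-coding genes, an alternative chosen after seeing the data.

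From *Hmox1* down to *Gpx7* the ranges of neighbours over the control libraries did not overlap. *Gpx3* lay at 8.75 ± 3.50 TPM, close to the median of 9.73 TPM over protein-coding genes, and *Cat* lay at 2.47 ± 0.525 TPM, above only 20.8% of those genes. *Gpx7* had 0 to 17 counts in a library and averaged 0.663 ± 0.450 TPM in control cells. *Gpx8* had 0 counts in all 11 libraries, which allows at most 0.190 to 0.288 CPM depending on the library by counting error alone. In TPM the catalase transcript was thus the lowest of the members detected in every library. Among the 5 glutathione peroxidases that are members, the cytosolic *Gpx1* and the lipid peroxidase *Gpx4* were the most abundant. *Gpx2*, which is not a member, averaged 67.7 TPM in control cells.

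**Figure D1:**
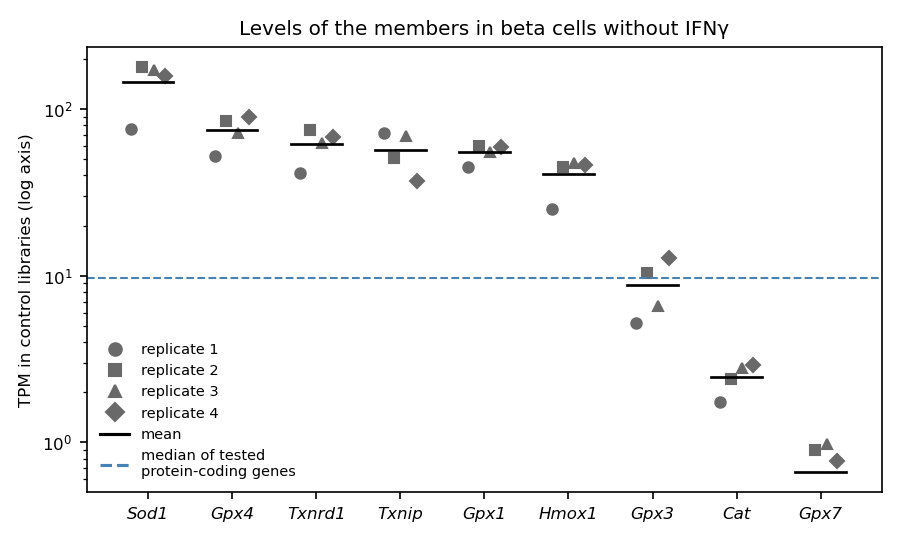
TPM (log axis) of 9 members in each of the 4 control libraries, with the mean as a bar and the median of tested protein-coding genes as a dashed line. *Sod1* is highest at a mean of 146 TPM, *Gpx3* lies near the dashed line at 9.73 TPM, and *Cat* and *Gpx7* lie below it; *Gpx7* was at 0 in control replicate 1, which a log axis cannot show, and *Gpx8*, at 0 throughout, is not drawn.

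Between libraries, levels of one gene were compared as CPM scaled by the trimmed mean of M-values (TMM). *Gpx3* (ENSMUSG00000018339) lies on chromosome 11 of GRCm38 from 54902453 to 54910377 on the plus strand. It was at 9.62, 14.6, 8.82 and 17.5 CPM in control replicates 1 to 4. In PD-L1low replicates 2 to 4 it was at 6.13, 2.44 and 6.67 CPM. PD-L1high replicates 1 to 4 gave 11.01, 20.2, 16.6 and 18.0 CPM. All 3 PD-L1low libraries were therefore below all others, while control and PD-L1high libraries overlapped. Within replicates that had both, *Gpx3* was higher in PD-L1high than in PD-L1low in 3 of 3, by 2.69 to 6.80-fold.

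*Hmox1* (ENSMUSG00000005413) lies on chromosome 8 from 75093621 to 75100589 on the plus strand. Control replicates 1 to 4 had 43.1, 61.3, 59.6 and 61.4 CPM of it. PD-L1low replicates 2 to 4 had 23.9, 28.1 and 27.9 CPM. It reached 166, 68.8, 97.9 and 83.6 CPM in PD-L1high replicates 1 to 4. None of the 3 groups overlapped another for *Hmox1*: PD-L1low was lowest, control lay between and PD-L1high was highest, with replicate 1 far above its group. No other member had 3 groups without overlap.

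**Figure D2:**
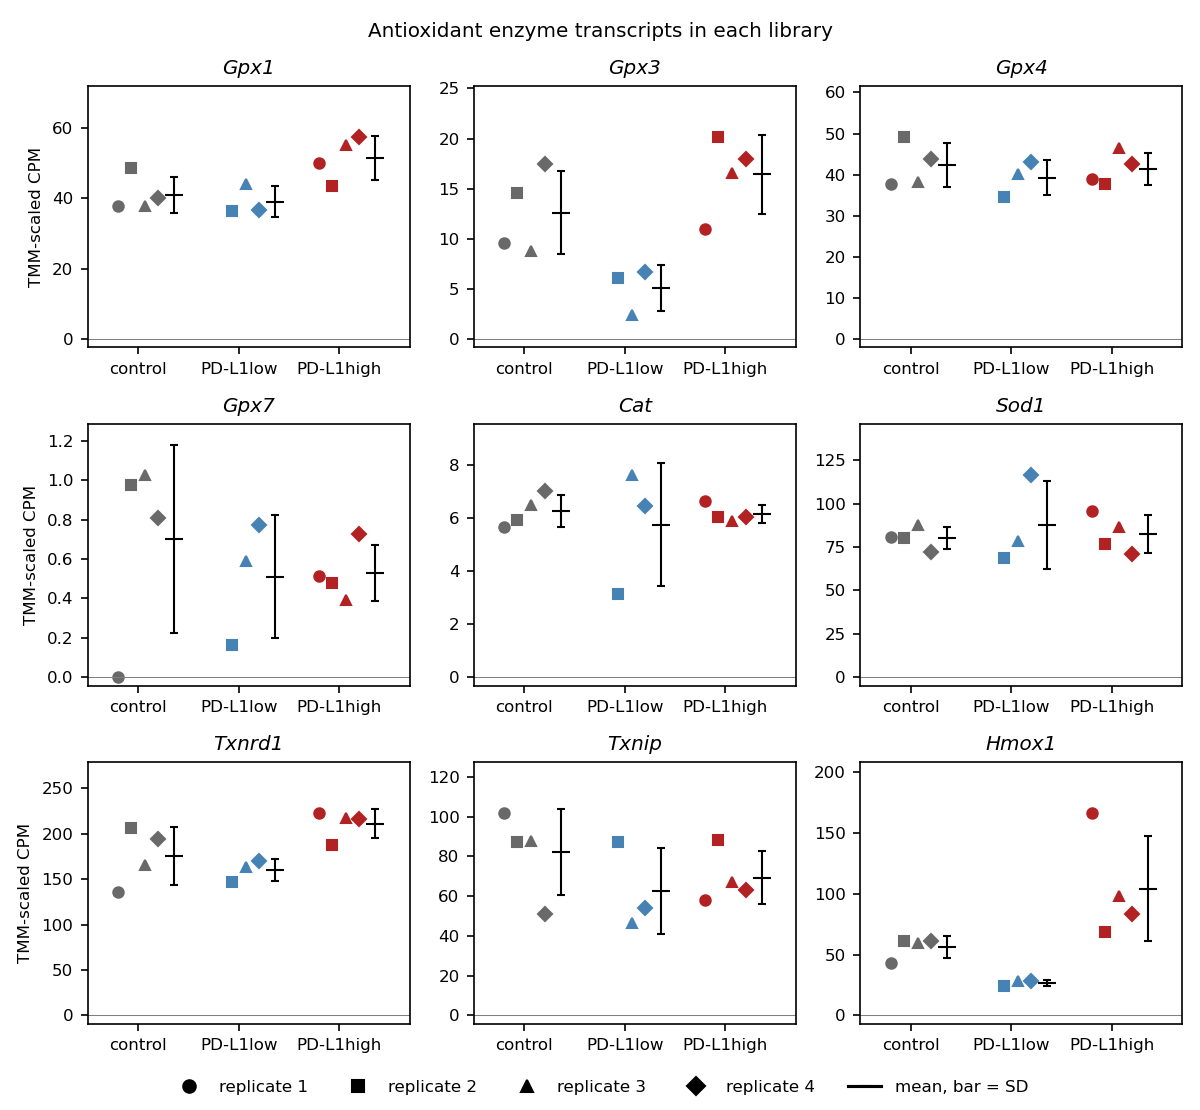
TMM-scaled CPM of 9 members in each library of control, PD-L1low and PD-L1high beta cells, with a marker for each replicate number and black bars for the mean ± SD. The 3 PD-L1low libraries lie below all others for *Gpx3* and *Hmox1*, whereas the groups overlap for *Gpx4*, *Gpx7*, *Cat*, *Sod1* and *Txnip*.

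The direct comparison of the sorted groups asked which members differed between beta cells that had and had not raised surface PD-L1 under the same IFNγ. By edgeR's quasi-likelihood test, 2 of 9 members tested were higher in PD-L1high beta cells and 0 were lower, where 0.732% of all 16252 tested genes were called. *Gpx8* did not pass the filter on low counts, so it was not tested. For *Gpx3* the log2 fold change was 1.91 (SE 0.259, 95% interval 1.36 to 2.46, edgeR adjusted p = 0.00104), and the call was kept in all 23 alternative analyses, with adjusted p up to 0.0368. For *Hmox1* it was 1.83 (SE 0.284, 95% interval 1.20 to 2.47, edgeR adjusted p = 0.0177), a call kept in 19 of 23. That call was lost when 1 library was left out: PD-L1low replicate 2 (edgeR adjusted p = 0.297), 3 (0.120) or 4 (0.197) or PD-L1high replicate 3 (0.102), with log2 fold changes of 1.82 to 1.87. Without both replicate 1 libraries, tried after seeing the data, the log2 fold change of *Hmox1* was 1.64 (adjusted p = 4.38e-06).

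*Txnrd1* and *Gpx1* were the next 2 members by p in this comparison, and neither passed. *Txnrd1*, which regenerates reduced thioredoxin, was at 147, 163 and 169 CPM in PD-L1low replicates 2 to 4 and at 223, 187, 218 and 216 CPM in PD-L1high replicates 1 to 4. These 2 groups did not overlap, and the log2 fold change was 0.45 (95% interval 0.15 to 0.75, edgeR adjusted p = 0.323). *Gpx1*, the main cytosolic glutathione peroxidase, was at 36.3, 44.2 and 36.7 CPM in PD-L1low libraries and at 49.9, 43.3, 55.0 and 57.4 CPM in PD-L1high libraries. Its log2 fold change was 0.42 (95% interval 0.09 to 0.75, edgeR adjusted p = 0.464). Both were higher in PD-L1high in 3 of 3 replicates.

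Differences of *Gpx4*, *Cat*, *Sod1* and *Txnip* between the sorted groups lay at log2 fold changes of -0.12 to 0.16. Their 95% intervals bound them to -0.19 to 0.43 for *Gpx4*, -0.52 to 0.84 for *Cat*, -0.48 to 0.24 for *Sod1* and -0.26 to 0.56 for *Txnip*. *Gpx7*, with 0.166 to 0.772 CPM in PD-L1low and 0.393 to 0.727 CPM in PD-L1high libraries, had an interval of -1.86 to 2.96, so that a difference could not be resolved at this depth. Over the 9 tested members the median log2 fold change was 0.42 (0.14 to 0.54 over the alternatives), beside 0.00 over all tested genes.

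**Figure D3:**
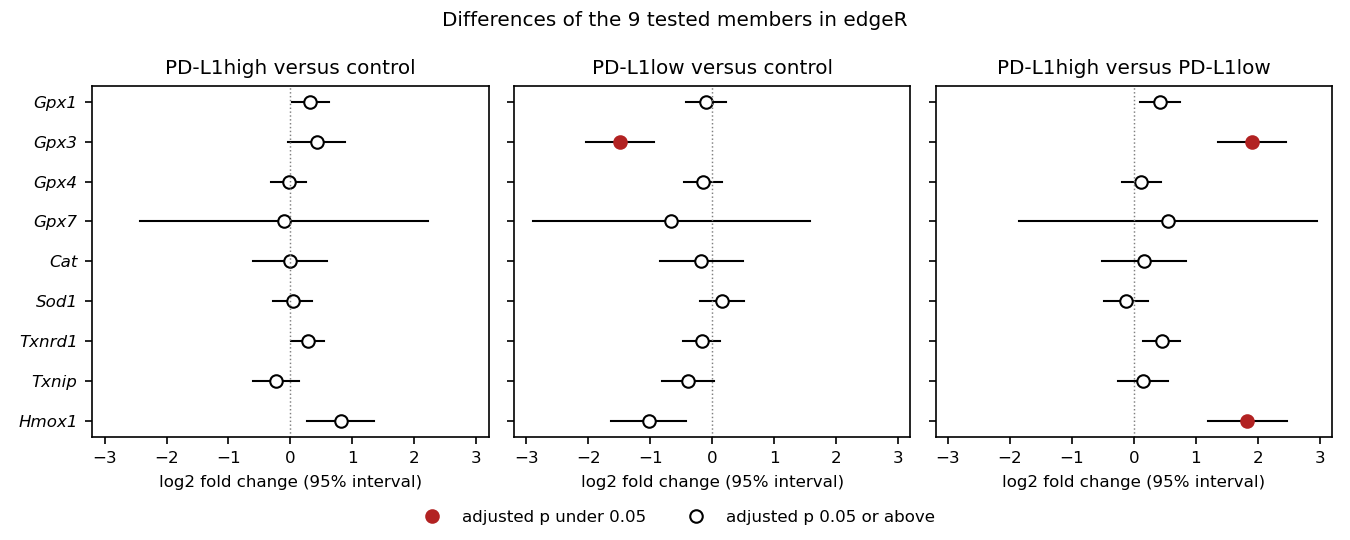
Log2 fold changes from edgeR with 95% intervals for the 9 tested members in the 3 comparisons; filled points have an adjusted p under 0.05. Filled points are *Gpx3* in PD-L1low versus control (-1.49) and *Gpx3* (1.91) and *Hmox1* (1.83) in PD-L1high versus PD-L1low; intervals of *Gpx7* are the widest.

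In PD-L1low beta cells compared with control beta cells, 1 of 9 tested members was called, and it was lower; in this comparison 0.0800% of all tested genes were called in either direction. That member was *Gpx3*, whose log2 fold change was -1.49 (SE 0.257, 95% interval -2.04 to -0.94, edgeR adjusted p = 0.0485) and which was lower in 3 of 3 replicates. The call sat just under the threshold and was kept in 11 of 23 alternatives. It was lost without PD-L1low replicate 2 (edgeR adjusted p = 0.140), 3 (0.369) or 4 (0.0924), without control replicate 2 (0.186), 3 (0.152) or 4 (0.330) and without PD-L1high replicate 2 (0.115). Without the replicate term the edgeR adjusted p was near 1, at a log2 fold change of -1.31.

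*Hmox1* was also lower in all 3 PD-L1low libraries than in any control library, with a log2 fold change of -1.02 (SE 0.269, 95% interval -1.63 to -0.42). Its edgeR adjusted p was near 1 (unadjusted under 0.05) in this comparison, in which few genes passed. Whether it passed depended on the replicate 1 libraries, on the settings and on the tool. Without control replicate 1 the edgeR adjusted p was 2.16e-04, without PD-L1high replicate 1 it was 4.08e-04, and without both 2.82e-04. These fits are nearly the same analysis. Replicate 1 has no PD-L1low library, and with the replicate term a library left alone in its replicate does not inform a comparison. DESeq2 with the replicate term gave 0.00691. The log2 fold change itself stayed between -1.20 and -0.81 over the 23 alternatives.

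*Txnip*, the thioredoxin-binding protein gene induced by glucose, was at 102, 87.4, 87.8 and 51.2 CPM in control replicates 1 to 4 and at 87.2, 46.4 and 53.9 CPM in PD-L1low replicates 2 to 4. The ranges overlapped, and the log2 fold change was -0.39 (95% interval -0.81 to 0.03, edgeR adjusted p near 1). For *Gpx1*, *Gpx4*, *Cat*, *Sod1* and *Txnrd1* the log2 fold changes lay between -0.17 and 0.16, and none passed the test. *Gpx7* was at -0.66 with an interval of -2.89 to 1.58. Over the 9 tested members the median log2 fold change was -0.17, beside 0.00 over all tested genes.

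PD-L1high beta cells compared with control beta cells addressed the members' response in the cells that had raised surface PD-L1 under IFNγ. By edgeR, 0 of 9 tested members were called, where 0.991% of all tested genes were; 3 members had an unadjusted p under 0.05, and DESeq2 and limma-voom each called 1, *Hmox1*. An unadjusted p under 0.05 was found for 7.65% of all tested genes. *Hmox1* was higher in 4 of 4 replicates, with a log2 fold change of 0.81 (95% interval 0.27 to 1.35, edgeR adjusted p = 0.348). DESeq2 with the replicate term gave an adjusted p of 0.00810 and limma-voom gave 0.0433 for it. Without control replicate 1, PD-L1high replicate 1 or both, which are nearly the same fit, the log2 fold change of *Hmox1* was 0.44. The edgeR adjusted p values were 0.270, 0.329 and 0.305.

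The other 2 members with an unadjusted edgeR p under 0.05 were *Gpx1*, at a log2 fold change of 0.32 (95% interval 0.03 to 0.62, adjusted p = 0.590), and *Txnrd1*, at 0.28 (95% interval 0.01 to 0.54, adjusted p = 0.630). Both were higher in PD-L1high in 3 of 4 replicates, the exception being replicate 2. *Gpx3* had a log2 fold change of 0.42 (95% interval -0.04 to 0.88, edgeR adjusted p = 0.688). *Gpx4*, *Cat* and *Sod1* lay within 0.04 of 0 on the log2 scale, with intervals of -0.31 to 0.25, -0.61 to 0.58 and -0.28 to 0.35. *Txnip* was at 58.0, 88.4, 66.9 and 63.2 CPM in PD-L1high replicates 1 to 4 and had a log2 fold change of -0.24 (95% interval -0.61 to 0.13, edgeR adjusted p = 0.787). *Gpx7* was at -0.10 with an interval of -2.42 to 2.21. Over the 9 tested members the median log2 fold change was 0.04, beside -0.02 over all tested genes.

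The 3 comparisons are not independent, because the 2 comparisons with control share the control libraries and each sorted group enters 2 comparisons. For *Gpx3* the log2 fold changes were thus 0.42 in PD-L1high and -1.49 in PD-L1low beta cells against the same controls. For *Hmox1* they were 0.81 and -1.02. The direct comparison of the sorted groups is at the same time the test of the difference between these 2 values.

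Hormone transcripts of other islet cell types also differed between the sorted groups. Both PP cell markers, 1 of 6 tested alpha cell markers (*Gcg*) and 1 of 2 tested delta cell markers (*Sst*) were called higher in PD-L1high than in PD-L1low beta cells. In PD-L1low versus control both PP cell markers were called lower, and no alpha or delta cell marker was called. The 2 PP cell hormone genes *Ppy* and *Pyy* together ran from 150 to 382 CPM in control, from 26.8 to 33.5 CPM in PD-L1low and from 233 to 562 CPM in PD-L1high libraries. Over the 11 libraries *Gpx3* had r of 0.87 to *Ppy* and 0.88 to *Pyy*, with the PD-L1low libraries lowest for all 3 genes. Within control and within PD-L1low, *Gpx3* was highest in replicate 4 and the sum of *Ppy* and *Pyy* in replicate 2. Within PD-L1high, replicate 2 was highest for both. The 7 alpha cell markers summed to 323 to 1390, 350 to 354 and 562 to 1486 CPM in the same order of groups, and the 5 delta cell markers to 6.82 to 33.4, 3.51 to 9.27 and 11.6 to 39.5 CPM. The PD-L1low alpha cell sums thus lay within the control range. Whether these transcripts have a part in the differences of *Gpx3* and *Hmox1* was not tested. The beta cell markers overlapped between groups, at 74210 to 79810 CPM in PD-L1low and 63750 to 92510 CPM in PD-L1high libraries. The 6 macrophage markers summed to 7.14 to 11.3 CPM in control, 7.51 to 10.9 CPM in PD-L1low and 9.79 to 12.3 CPM in PD-L1high libraries, with *Adgre1* and *Lyz2* at 0 in each. The 2 that were tested, *C1qa* and *Cd68*, had log2 fold changes of 0.55 and 0.24 between the sorted groups and did not pass, and their part in the difference of *Hmox1* was not tested. Of the 6 erythroid markers, 5 were at 0 in each library, the hemoglobin genes among them.

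Over the 11 libraries, the 5 genes with the profile most like that of *Gpx3* (Pearson r of log2 CPM) were *Aldh5a1* (0.91), *Eef1a2* (0.90), *Pyy* (0.88), *Zfp952* (0.88) and *Ppy* (0.87). For *Hmox1* they were *Tfrc* (0.93), *Gstp1* (0.90), *Btaf1* (0.88), *Rxra* (0.87) and *Dtx4* (0.85). *Tfrc* encodes the transferrin receptor CD71, the surface protein used as a gate for beta cells, which takes up iron. It averaged 243 ± 22.1 CPM in control (SD, n = 4), 190 ± 26.4 CPM in PD-L1low (SD, n = 3) and 342 ± 39.7 CPM in PD-L1high libraries (SD, n = 4). The part of the CD71 gate in the level of *Hmox1* was not tested. Nearest to *Txnip* were *Fdxr* (0.90), *Stx16* (0.89), *Plut* (0.87), *Gm16867* (0.85) and *Gm7598* (0.84). These correlations describe libraries of 3 unlike groups, so that a gene that differs between groups resembles others that do.

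Among the members themselves, *Gpx1* and *Txnrd1* had the most similar profiles (r = 0.83 over 11 libraries), followed by *Txnrd1* and *Hmox1* (r = 0.80). *Txnip* had r of -0.23 to *Gpx1* and -0.37 to *Txnrd1*, and its lowest values were to *Cat* (-0.54) and *Gpx7* (-0.46). *Sod1* likewise had low r to *Gpx1* (-0.14) and *Txnrd1* (0.07). *Gpx3* and *Hmox1*, the members called between the sorted groups, had r = 0.68.

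**Figure D4:**
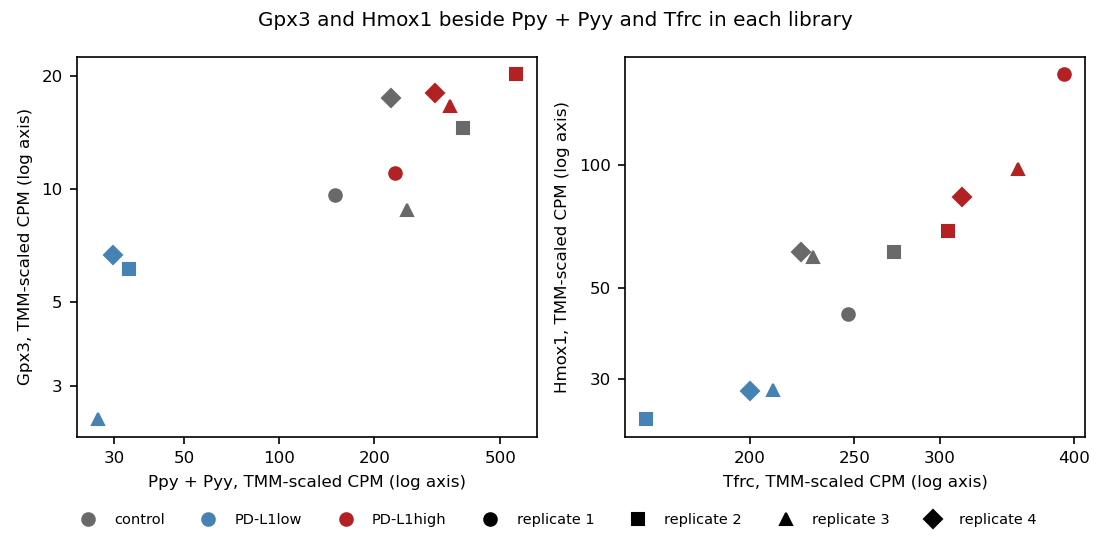
TMM-scaled CPM (log axes) of *Gpx3* against the sum of *Ppy* and *Pyy* (left) and of *Hmox1* against *Tfrc* (right) in each of the 11 libraries, coloured by group, with a marker for each replicate number. The 3 PD-L1low libraries lie lowest for *Gpx3*, *Hmox1* and the sum of *Ppy* and *Pyy*, and PD-L1high replicate 1 is highest for both *Hmox1* (166 CPM) and *Tfrc* (392 CPM).

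The surrounding antioxidant system was described by 10 lists with 102 further genes, of which 88 were tested. The lists were chosen with earlier results of these data known. Between the sorted groups 2 of the 88 were called, both higher in PD-L1high beta cells, where 0.732% of all tested genes were called. An unadjusted edgeR p under 0.05 was found for 22 of the 88 and for 8.52% of all tested genes. *Gstp1*, a glutathione S-transferase, was at 38.1, 42.6 and 46.3 CPM in PD-L1low and at 82.5, 68.1, 83.3 and 80.4 CPM in PD-L1high libraries. Its log2 fold change was 0.95 (SE 0.152, 95% interval 0.63 to 1.28, edgeR adjusted p = 0.00445), and the call was kept in all 23 alternatives. *Gpx2*, the glutathione peroxidase of epithelia, was at 32.2, 44.3 and 57.1 CPM in PD-L1low and at 74.7, 60.7, 71.8 and 72.1 CPM in PD-L1high libraries. Its log2 fold change of 0.72 (SE 0.155, edgeR adjusted p = 0.0474) was lost in 12 of 23 alternatives. Each of PD-L1low replicates 2, 3 and 4, PD-L1high replicates 2 and 3 and control replicates 3 and 4 ended the call of *Gpx2* when left out, with adjusted p up to 0.379 over the alternatives. With a mean of 67.7 ± 22.3 TPM (SD, n = 4), *Gpx2* stood at a level in control cells like that of *Gpx4* and *Gpx1*.

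The list of NRF2, the factor that controls *Hmox1* and *Txnrd1*, held its own gene *Nfe2l2*, its inhibitor *Keap1*, *Hmox2*, which encodes the constitutive heme oxygenase, and NRF2 targets and related enzymes. Log2 fold changes between the sorted groups were positive in 14 of these 15, with a median of 0.31 (10 to 15 positive over the alternatives, library size normalization among those with fewer), and none was called by edgeR (7 had an unadjusted p under 0.05, and DESeq2 with the replicate term and limma-voom each called 1 of them, *Me1*). *Sqstm1*, the list's most abundant gene in control cells at 305 TPM, was at 0.40 (edgeR adjusted p = 0.540). In glutathione synthesis and recycling 8 of 12 were positive (median 0.20), led in control cells by *Gclm*, a subunit of the enzyme that starts glutathione synthesis, at 116 TPM and with a log2 fold change of 0.66 (edgeR adjusted p = 0.144), a gene that DESeq2 called both with and without the replicate term. Peroxiredoxins and sulfiredoxin were positive in 6 of 7 (median 0.23), with *Prdx1* most abundant at 177 TPM and a log2 fold change of 0.26. Glutathione S-transferases, *Gstp1* among them, were positive in 6 of 9 (median 0.30), and the further glutathione peroxidases and superoxide dismutases, *Gpx2* among them, in 4 of 4 (median 0.21). Over all 88 genes the median was 0.16, beside 0.00 over all tested genes.

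The remaining lists had medians from -0.16 to 0.14. The thioredoxin system, led by *Txnl1* at 60.5 TPM, had a median of -0.09 with 5 of 11 positive. Genes of selenoprotein synthesis and other selenoproteins, needed because *GPX1* to *GPX4* and *TXNRD1* carry selenocysteine, had a median of 0.08 with 11 of 15 positive, and *Selenop* led at 203 TPM. Iron storage and metallothionein genes had a median of 0.14 with 5 of 6 positive, and *Mt1* was the most abundant gene of any list at 1069 TPM. *Txnip*'s paralog and the glucose-sensing regulators had a median of -0.02 with 2 of 7 positive, and *Mlxipl*, which encodes the carbohydrate-response factor that drives *Txnip*, led at 142 TPM. Of 8 NADPH oxidase genes 2 were tested (median -0.16), and *Ncf1*, the most abundant, averaged 0.718 TPM.

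Against control, edgeR called 0 of the 88 genes in PD-L1high beta cells (13 at an unadjusted p under 0.05, median log2 fold change 0.10) and 0 in PD-L1low beta cells (9 at an unadjusted p under 0.05, median -0.07). Over all tested genes, edgeR called 0.991% and 0.0800% in these 2 comparisons, and 7.65% and 2.10% had an unadjusted p under 0.05. DESeq2 with the replicate term called 1 in each, *Selenop* in PD-L1high and *Gstp1* in PD-L1low beta cells. Limma-voom called 1 and 0, the former also *Selenop*. The share of all genes that these 2 tools called is not given here.

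**Figure D5:**
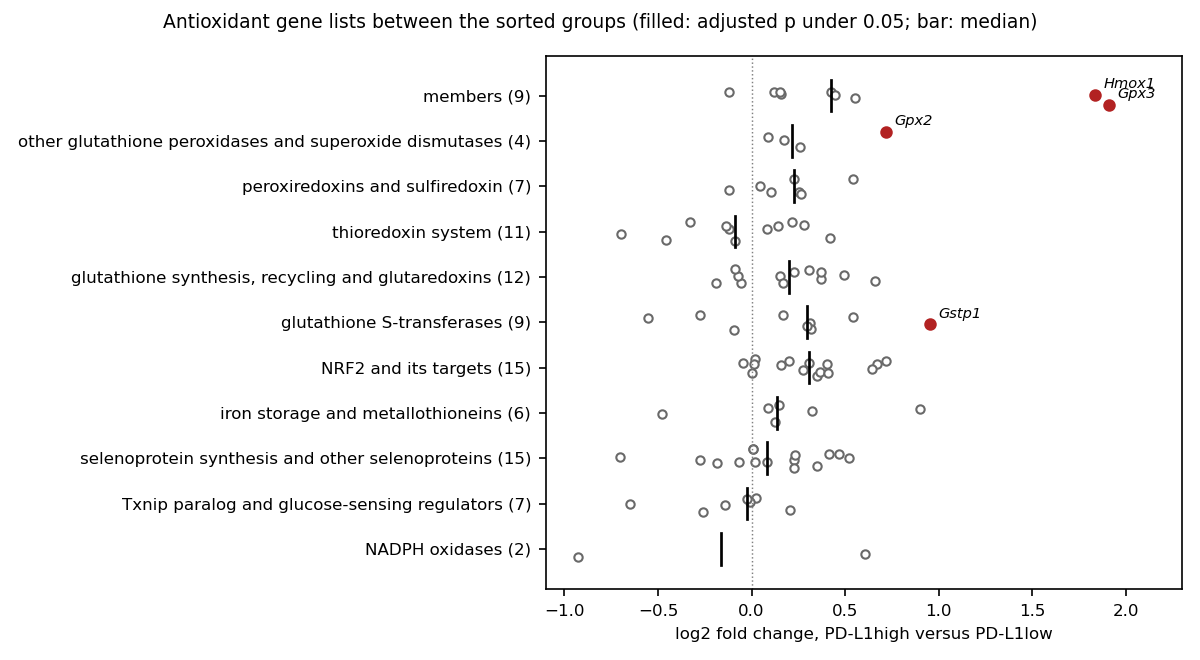
Log2 fold changes of PD-L1high versus PD-L1low beta cells for the 9 tested members and the 88 tested genes of 10 further lists; each point is a gene, filled where the edgeR adjusted p was under 0.05, the bar is the list's median and the number of genes is in parentheses. *Gpx3* and *Hmox1* lie to the right of all other genes, *Gstp1* and *Gpx2* are also filled, and the NRF2 list has 14 of 15 points above 0.

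RefSeq promoter windows on GRCm38.p6 were available for 9 of the 10 members, in 14 windows of 300 bases that reach from 250 bases before a start site to 50 after it. They were searched on both strands for the core of the interferon-stimulated response element (ISRE, GAAANNGAA), the core of the antioxidant response element bound by NRF2 (ARE, TGACNNNGC), the E-box CACGTG bound by the carbohydrate-response factor, and the AP-1 motif TGANTCA. Of all 32851 promoter windows, 8.56% held the ISRE core, 12.4% the ARE core, 7.15% the E-box and 7.81% AP-1. Sequence before a RefSeq start site is shown for *Gpx3* and *Txnrd1*. *Gpx3* was called lower in PD-L1low than in both other groups, against control just under the threshold, and held none of these motifs. *Txnrd1* held the ARE core in the window printed and came next by p after *Gpx3* and *Hmox1* between the sorted groups. Both stretches lie inside the annotated span of their gene, 54902453 to 54910377 for *Gpx3* and 82833951 to 82897712 for *Txnrd1*. Capitals mark the ARE core, and bases within an annotated untranslated region were left out.
*Gpx3* (chr11:54902604-54902771, plus strand): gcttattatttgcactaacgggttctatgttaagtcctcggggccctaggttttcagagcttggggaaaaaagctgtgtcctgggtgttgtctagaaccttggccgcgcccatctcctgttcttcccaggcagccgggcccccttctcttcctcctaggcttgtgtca
*Txnrd1* (chr10:82858956-82859178, plus strand): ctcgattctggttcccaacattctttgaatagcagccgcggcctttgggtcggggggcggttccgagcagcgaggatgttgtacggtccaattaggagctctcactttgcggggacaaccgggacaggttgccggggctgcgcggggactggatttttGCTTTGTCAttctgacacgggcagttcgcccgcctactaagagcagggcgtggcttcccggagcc
In the printed *Txnrd1* window the ARE core begins 92 bases before the RefSeq start site, and no other motif searched overlaps it. The other *Txnrd1* windows held none of the motifs. The *Gpx4* window that begins at 80046916 held the ISRE core 39 bases before its start site. The other *Gpx4* windows, further downstream, held none of the motifs. *Sod1* held the ARE core 56 bases before its start site. No window of *Gpx1*, *Cat*, *Txnip*, *Gpx7* or *Gpx8* matched. A match is a description of letters and not of binding.

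Some members share sequence with other genes, which bears on how their reads were counted. Expected counts were not whole numbers in 11 of 11 libraries for *Gpx4* and in 9 of 11 for *Sod1* and *Txnip*, which RSEM can give where it divides reads between genes. *Txnip* overlaps the antisense gene *Gm15441* in exons, which had 77 counts over all libraries. *Gpx3* and *Hmox1* had whole counts throughout and no overlapping gene.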

How the data were processed

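RNA-seq libraries of sorted beta cells (4 control, 3 PD-L1low and 4 PD-L1high) were grouped by their labels. Per the methods, the authors aligned paired reads to GRCm38.p6 with STAR 2.5.2b, quantified genes with RSEM and ran their tests in DESeq2 1.32.0 with batch in the model. The expected counts deposited by the authors are unnormalized RSEM estimates per gene, and were rounded to whole numbers here (library totals changed by at most 0.000388%). The TPM values deposited by the authors are RSEM estimates corrected for transcript length and scaled to a fixed sum per library. The deposited FPKM column was not used. Ensembl IDs were matched to symbols for 55141 of 55487 genes, and positions came from GENCODE on GRCm38.

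Genes were kept by edgeR's filterByExpr at a count minimum of 10, leaving 16252. Counts were normalized by TMM and fitted over all 11 libraries with terms for condition and replicate number (edgeR 4.0.16, robust quasi-likelihood, common biological coefficient of variation 0.258), the replicate number standing for the batch, which the methods leave undefined. P values were adjusted by Benjamini-Hochberg over all tested genes in each comparison, at a threshold of 0.05. Profiles were compared as log2 CPM with a prior count of 2. The procedure was tested on simulated data. Alternatives numbered 23: normalization by RLE, by upper quartile or by library size, a model lacking the replicate, a minimum of 50 counts or none, DESeq2 1.42.0 under both models, limma-voom (limma 3.58.1), a fit of just the compared groups, no mitochondrial genes, each of the 11 libraries left out in turn, and, added after seeing the data, both replicate 1 libraries left out. With the replicate term, leaving out either or both replicate 1 libraries gives nearly the same fit, so these alternatives are not independent. Models ran in R 4.3.3, tables and plots in Python 3.11.15 (pandas 2.3.3, matplotlib 3.10.9). Intervals and floors cover counting and replicate error only as modelled, and a floor is 3 counts of a library's total, for counting error alone; whether molecular identifiers were used to remove duplicate reads was not given in the sources used here.

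The members and lists were chosen with earlier results of these data known. The rule for named genes was every member, the genes of each further list called in any comparison (at most 4 a list), each list's most abundant gene in control cells, the 5 genes with the profile most like that of *Gpx3*, *Hmox1* and *Txnip*, and marker genes where a result turned on them. *Me1* was named because other tools called it, after its values were seen, as were *C1qa* and *Cd68*.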

Additional observations from a re-analysis of the deposited data

Results flagged for a closer look

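*Hmox1* in control replicate 1 was at 43.1 CPM, while the other 3 control libraries lay between 59.6 and 61.4 CPM, a gap wide enough for Dixon's test at 95%. This was the only such value among 18 groups of 4 libraries examined (9 members in control and in PD-L1high), and chance flags about 1 in 20 groups. The same library had the highest mitochondrial share of counts. The part of that share in the value of *Hmox1* was not tested.

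The change of *Gpx3* relative to control differed between PD-L1high and PD-L1low beta cells by 1.91 on the log2 scale, and that of *Hmox1* by 1.83. In both cases the difference itself was tested by edgeR, as given for the comparison of the sorted groups (adjusted p = 0.00104 and 0.0177).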

How the results depend on the processing

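In PD-L1high versus PD-L1low, the 2 calls among members became 1 to 2 when a library was left out, and the 2 calls among further antioxidant genes became 1 to 4. The latter count was 1 with no replicate block and with upper quartile or library size normalization, 8 with no filter on low counts, 5 with DESeq2 and the replicate term and 4 with limma-voom. In PD-L1low versus control, the 1 call among members became 0 with no replicate block, RLE or upper quartile normalization or a minimum of 50 counts, 2 with no filter, DESeq2 with the replicate term, only the 2 groups compared or without both replicate 1 libraries, and 0 to 2 when a library was left out. There the 0 calls among further genes became 1 with no filter, either DESeq2 model, only the 2 groups compared or without both replicate 1 libraries, and 0 to 1 when a library was left out. In PD-L1high versus control, the 0 calls among members became 1 with no filter, either DESeq2 model and limma-voom, and among further genes 5 with no filter, 1 with either DESeq2 model or limma-voom, and 0 to 4 when a library was left out. The share of all tested genes called under each alternative is not given here. A shift in these counts can therefore not be told apart from a shift in all calls. The cause of these shifts was not tested. Over 607 log2 fold changes of single members, 580 kept their side of the threshold, 16 lost it and 11 passed it, and no called value changed sign. Deviations from the group means of libraries with the same number correlated at -0.33 to 0.41, above 0.1 in 6 of 10 pairs (3 of 4 for control and PD-L1high, 1 of 3 for the sorted groups); whether they came from the same islets was not given in the sources used here. With no replicate block the log2 fold changes of PD-L1high versus PD-L1low were 1.69 for *Gpx3* (edgeR adjusted p = 0.0368) and 1.97 for *Hmox1* (0.00150). Depth limits *Gpx7* and *Gpx8*, at 0 to 17 and 0 counts.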
